A study of Mus musculus with 12 samples.

Results

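The 7 genes described here encode intermediate filament proteins, and they are the columns Nefl, Nefm, Nefh, Ina, Prph, Vim and Nes of a count table of 24489 genes measured in single cells of the developing mouse cochlea. They were chosen by name and not by their values. Cells positive for the reporter (tdTomato) were sorted from dissected spiral ganglia, or from the modiolus at E14.5 and E15.5, and sequenced with Smart-seq2 in 384-well plates. Each plate is 1 sample of cells pooled from several animals. There were 3 plates of E16.5, 1 of E17.5 and 2 each of E14.5, E15.5, E18.5 and, after birth, P3.

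All plates were labelled PVcre;Ai14, in which a parvalbumin-driven Cre switches on tdTomato, except replicate 2 of E14.5, labelled TrkCcre. The methods of the study give an Ntrk3 driver for E14.5 and a parvalbumin driver for E15.5 to E18.5, so the driver of replicate 1 of E14.5 is uncertain. If both E14.5 plates had the Ntrk3 driver, E14.5 cannot be told apart from its driver. The part of the driver in differences between E14.5 and later stages was not tested. Of 4608 wells, 4226 held cells that passed the filter of the study, with 125 to 382 cells a plate. Plates held 81194114 to 305100474 counts, and the median cell of a plate between 232473 and 1092427. Clusters were named from marker genes, and 2265 cells were SGN-like (spiral ganglion neurons, the primary auditory neurons), 1149 glia-like, 518 OM-like (otic mesenchyme) and 74 HC-like (hair cells). The remaining 220 cells were of other classes or unnamed. None of the 7 genes entered the clustering. Plates were made in 4 series, and only series SS2_20 held more than 1 stage (E14.5 to E17.5), so that E18.5 and P3 cannot be told apart from their own series. In the glia-like sums of the E16.5 and E18.5 plates outside SS2_20, 10 SGN markers together reached 6937 to 8359 CPM (counts scaled to a common library size of 1e6), against 572 to 681 CPM within SS2_20. Glia-like and OM-like cells are therefore described from the 6 plates of SS2_20.

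Intermediate filaments are rope-like polymers of coiled-coil proteins that give cells tensile strength. In neurons, the light, medium and heavy neurofilament proteins (Nefl, Nefm, Nefh) copolymerise with alpha-internexin (Ina) and peripherin (Prph), and the neurofilament content of an axon helps to set its calibre. Peripherin is found mainly in neurons of the peripheral nervous system and is a usual marker of the unmyelinated type II SGNs, which contact outer hair cells. Vimentin (Vim) builds the filaments of mesenchymal, glial and progenitor cells, and nestin (Nes) is a large partner of vimentin in progenitors.

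In the mouse genome (mm10, GENCODE vM21), the neurofilament genes Nefl and Nefm are neighbours on opposite strands. Nefl lies on chromosome 14 from 68083863 to 68089095 (plus strand) and Nefm from 68082590 to 68124846 (minus strand). The annotated span of Nefm holds all 5233 bases of Nefl, and their exons share 1108 bases. The sources used here do not give a strand setting for the counting, so reads from the shared bases could have been assigned to either gene or left uncounted. The other members are Nefh (chromosome 11, 4938754 to 4948064, minus strand), Ina (chromosome 19, 47014698 to 47025327, plus strand), Prph (chromosome 15, 99055174 to 99058978, plus strand), Vim (chromosome 2, 13573927 to 13582826, plus strand) and Nes (chromosome 3, 87971078 to 87980451, plus strand). Their exons cover between 1999 bases (Prph) and 6416 bases (Nes).

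The sequences before the start sites of Prph, the member with the widest differences between neuron classes, and of Vim, the member that differed between glia-like and OM-like cells, are shown as the 250 bases upstream in RefSeq (GRCm38.p6, plus strand). Prph covers chr15:99054924-99055173 and Vim chr2:13574061-13574310. Capitals mark the letters TATAAA, searched on both strands.
Prph: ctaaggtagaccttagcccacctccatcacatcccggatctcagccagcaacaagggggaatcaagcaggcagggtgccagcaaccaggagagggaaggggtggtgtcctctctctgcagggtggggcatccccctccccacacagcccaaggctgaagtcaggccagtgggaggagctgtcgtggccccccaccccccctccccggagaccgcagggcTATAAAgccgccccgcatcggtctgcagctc
Vim: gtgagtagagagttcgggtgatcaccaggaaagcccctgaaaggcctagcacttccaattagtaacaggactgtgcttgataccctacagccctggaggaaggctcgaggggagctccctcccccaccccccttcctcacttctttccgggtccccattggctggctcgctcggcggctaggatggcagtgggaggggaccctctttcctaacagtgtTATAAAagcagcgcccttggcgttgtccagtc
TATAAA begins 31 bases before the start of Prph and 32 bases before that of Vim. Of 32851 windows of this length in the table, 12.4% hold it on either strand. The windows of Ina and Nes do not hold these letters.

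In SGN-like cells, the neuronal filament genes did not change together during development. Nefh rose at every step, Ina fell late, and no step of Nefl or Nefm was called before the one from E18.5 to P3. Vim was high at E14.5 and lower from E15.5 on. Levels are CPM with TMM scaling, taken from the summed counts of a class in 1 plate. Sums of cell type markers, and levels in the cells lowest in glia markers, are CPM of the total count without that scaling. A gene is said to be called where edgeR's quasi-likelihood test gave it an adjusted p (Benjamini-Hochberg, over all genes tested) below 0.05. Taken alone, sums of this kind cannot tell fewer cells with a transcript from less of it per cell. Single cells were therefore also thinned to a common depth. At least 10 Ina counts were then found in 98.7% to 100% of SGN-like cells over the 12 plates, with 100% in both P3 plates. For Nefh this share was 10.1% and 14.0% at E14.5 and 99.5% and 100% at P3. Such a share also depends on the level per cell.

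**Figure D1:**
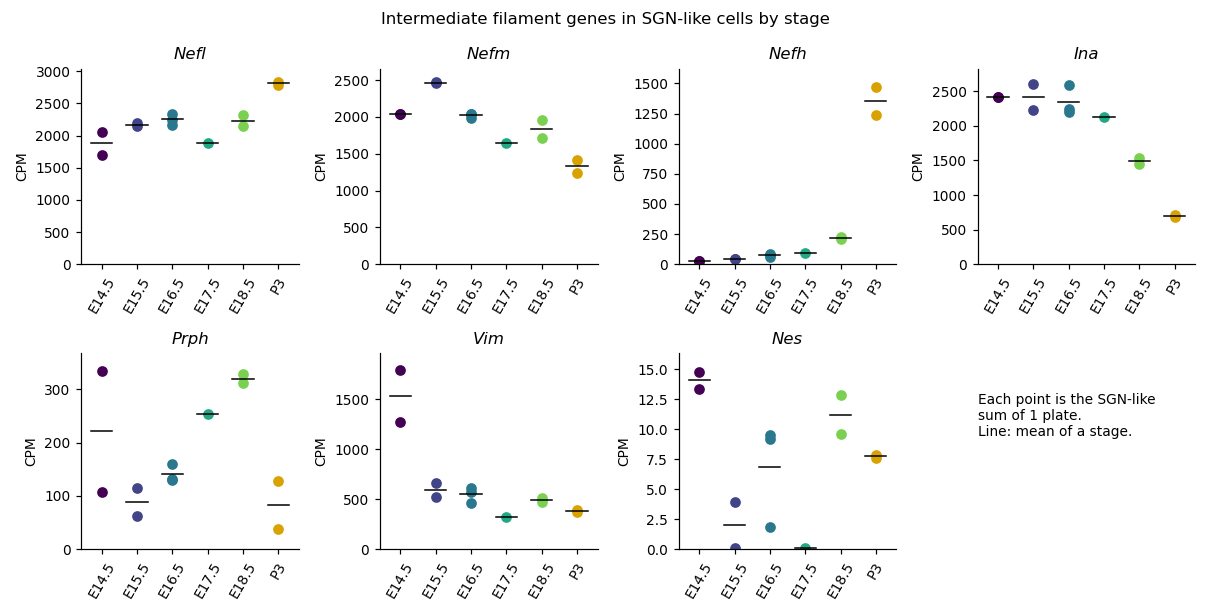
CPM (linear axis) of each gene in the SGN-like sum of each plate, by stage, with a line at the mean of a stage. Nefh climbs from 24.2 and 26.6 CPM at E14.5 to 1243 and 1474 CPM at P3, while Ina falls from 2422 and 2419 to 685 and 718 CPM.

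Nefh, the heavy subunit whose tail carries many phosphorylation sites, stood at 24.2 and 26.6 CPM in the plates of E14.5, 42.8 and 47.0 at E15.5, and 79.0, 88.0 and 63.5 at E16.5. It stood at 91.9 CPM at E17.5, 224 and 211 at E18.5, and 1243 and 1474 at P3. No 2 stages with replicates overlapped. The log2 change was 1.46 ± 0.13 (SE) from E14.5 to E16.5 (adjusted p = 7.88e-05), 1.50 ± 0.12 from E16.5 to E18.5 (adjusted p = 0.000204) and 2.65 ± 0.14 from E18.5 to P3 (adjusted p = 5.76e-06), all by edgeR. Within SS2_20 the slope was 0.61 ± 0.08 log2 units per embryonic day (edgeR adjusted p = 0.00431), and without the E17.5 plate it was 0.67 (adjusted p = 0.0651). In the 25% of SGN-like cells lowest in glia markers, all of these changes kept their direction (1.71, 1.56 and 2.46, and 0.70 per day) and none was called (edgeR adjusted p = 0.13, 0.51, 0.0501 and 0.437).

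Ina, the internexin that appears early in developing neurons, stood at 2422 and 2419 CPM at E14.5, 2598 and 2222 at E15.5, and 2198, 2250 and 2587 at E16.5. It was 2122 CPM at E17.5, 1453 and 1539 at E18.5, and 685 and 718 at P3. The stages up to E16.5 overlapped, and E18.5 and P3 lay below them and apart from each other. Its log2 change was -0.66 ± 0.12 from E16.5 to E18.5 (edgeR adjusted p = 0.0129) and -1.08 ± 0.13 from E18.5 to P3 (edgeR adjusted p = 0.000252). The first of these lost its call without either plate of E18.5 (adjusted p = 0.127 and 0.101 in edgeR) and in the cells lowest in glia markers (-0.38, adjusted p = 0.309).

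Nefl, the core subunit, stood at 1702 and 2054 CPM at E14.5, 2198 and 2143 at E15.5, and 2171, 2341 and 2239 at E16.5. It was 1881 CPM at E17.5, 2312 and 2150 at E18.5, and 2840 and 2790 at P3. P3 lay above every other plate. The rise at P3 was 0.35 ± 0.10 on the log2 scale (edgeR adjusted p = 0.0322), and it lost its call when any of the 4 plates of E18.5 and P3 was left out (adjusted p between 0.0918 and 0.22). Nefm, the medium subunit, stood at 2041 and 2036 CPM at E14.5, 2458 and 2468 at E15.5, and 2033, 1991 and 2037 at E16.5. It was 1652 CPM at E17.5, 1962 and 1714 at E18.5, and 1418 and 1236 at P3. Embryonic plates thus spanned 1652 to 2468 CPM, and both P3 plates lay below them. Its log2 change at P3 was -0.46 ± 0.10 (edgeR adjusted p = 0.00608, and 0.0559 without replicate 1 of E18.5), so the light and medium subunits moved in opposite directions in the last step.

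Prph differed between replicate plates more than the other neuronal members. It stood at 335 and 107 CPM in the E14.5 plates, which carry different driver labels, and at 62.6 and 115 at E15.5. It was 132.6, 159 and 130 CPM at E16.5, 255 at E17.5, 329 and 312 at E18.5, and 128 and 37.8 at P3. E18.5 lay above E15.5, E16.5 and P3 in every plate. The step from E16.5 to E18.5 was 1.18 ± 0.49 on the log2 scale (edgeR adjusted p = 0.231), and P3 was lower than E18.5 by a log2 change of -1.95 ± 0.56 (edgeR adjusted p = 0.0267). That call was lost without replicate 2 of P3 (adjusted p = 0.144) or either plate of E18.5 (0.0936 and 0.0742). II-like cells, the class with the highest Prph level, made up 8.82% and 6.25% of SGN-like cells at E18.5 and 4.79% and 3.2% at P3. Ia/Ib/II-like cells, a name given at E18.5 (127 and 138 cells) and not at P3, held 357 and 374 CPM of Prph. They held 15013 and 23749 of the 28164 and 37776 Prph counts of SGN-like cells at E18.5, against 5420 and 5451 in II-like cells. The part of either class in the change was not tested. In the SGN-like cells lowest in glia markers, Prph was higher at E16.5 than at E14.5 (2.13, edgeR adjusted p = 0.0131) and rose by 1.04 per day within SS2_20 (edgeR adjusted p = 0.0307). In all SGN-like cells these values were -0.79 (adjusted p = 0.307) and 0.016 (adjusted p = 0.98).

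Vim stood at 1792 and 1269 CPM at E14.5, 525 and 657 at E15.5, and 607, 568 and 466 at E16.5. It was 323 CPM at E17.5, 512 and 474 at E18.5, and 375 and 387 at P3. E14.5 lay above all later stages. The log2 change to E16.5 was -1.62 ± 0.14 (edgeR adjusted p = 6.99e-05), and the slope within SS2_20 was -0.76 ± 0.11 per day (edgeR adjusted p = 0.00684). The later steps were -0.15 ± 0.14 (adjusted p = 0.686) and -0.36 ± 0.16 (adjusted p = 0.127) in edgeR. Nes was low in SGN-like cells at all stages, from 0.0659 CPM at E17.5 to 14.8 CPM in a plate of E14.5, and no step between stages was called.

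Of the 7 members, 2 were called between E14.5 and E16.5, where 15.4% of the 17777 genes tested were called. Between E16.5 and E18.5, 2 were called against 4.98% of all genes, and between E18.5 and P3, 5 were called against 25% of all genes. Across the days of SS2_20, 2 were called against 5.93%. Between E16.5 and E17.5 within SS2_20, 1 plate each, the log2 change was 0.52 for Nefh and -0.30 for Ina. Neither stage has a replicate within SS2_20. A test of this pair takes its spread from the plates of E14.5 and E15.5, so only values are given here.

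**Figure D2:**
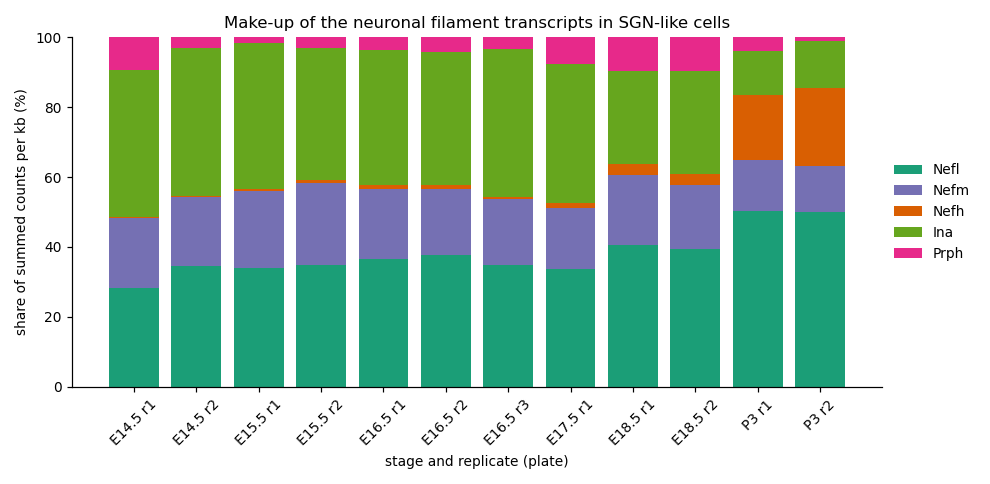
Stacked bars of the share (%) of Nefl, Nefm, Nefh, Ina and Prph in their summed counts per kb of exon, in the SGN-like sum of each plate. The Ina share shrinks from 42.0% and 42.3% at E14.5 to 12.7% and 13.4% at P3, and the Nefh share widens from 0.340% and 0.377% to 18.6% and 22.4%.

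A ratio within a plate does not depend on the scaling of libraries. Counts per kb of exon put genes on a common scale, using the length of all annotated exons. For Nefl (3380 bases) and Nefm (5782 bases), which share 1108 exon bases, the result depends on these lengths and on how shared reads were counted. Without division by length, Nefl was at 1702 and 2054 CPM at E14.5 and Nefm at 2041 and 2036. The order of these 2 genes, and their shares below, are limited by this. On this scale (CPM per kb), the order of levels in the E14.5 plates was Ina (748 and 747), Nefl (504 and 608), then Nefm (353 and 352) and Vim (378 and 268), whose plates overlapped. Prph (167.7 and 53.7), Nefh (6.05 and 6.65) and Nes (2.08 and 2.30) followed. At P3 the order was Nefl (840 and 825), Nefh (311 and 369), then Nefm (245 and 214) and Ina (212 and 222), which overlapped. Vim (79.0 and 81.7), Prph (63.8 and 18.9) and Nes (1.19 and 1.22) were lowest. At the level of transcripts, Ina led among the 5 neuronal members at E14.5 and stood beside Nefm at P3.

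The share of each gene in the summed counts per kb of the 5 neuronal members was compared between the 4 plates of E14.5 and E15.5 and the 4 of E18.5 and P3. Ina made up 41.0% ± 2.14 (SD, n = 4) of the sum early and 20.5% ± 8.69 (SD, n = 4) late. Nefh made up 0.481% ± 0.147 early and 11.9% ± 10.1 late, and Nefl 32.9% ± 3.07 early and 45.02% ± 5.95 late. For each of these the early and late plates did not overlap (two-sided exact permutation test, p = 0.0286, the smallest that 70 splits allow, adjusted p = 0.0476 over the 5 genes). Nefm went from 21.4% ± 1.78 to 16.504% ± 3.26 (exact permutation adjusted p = 0.107) and Prph from 4.32% ± 3.48 to 6.08% ± 4.30 (exact permutation adjusted p = 0.514). With any plate left out, no share could pass the threshold, because the test then has too few splits. The late SD includes the difference between E18.5 and P3: Nefh made up 3.32% and 3.27% at E18.5 and 18.6% and 22.4% at P3. The 5 shares are parts of 1 sum, so a fall of 1 raises others and the 5 tests are not independent.

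Across cells of 1 plate, Nefl and Nefm varied together. Pearson's r of their log2(CPM + 1) over SGN-like cells lay between 0.477 and 0.865 in the 12 plates (median 0.659). For Nefl and Ina it lay between -0.08 and 0.56 (median 0.328), and for Nefl and Nefh between -0.10 and 0.40 (median 0.106). Cells of a plate share their library and differ in depth, and Nefl and Nefm share exon bases, so these values are descriptions.

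Between cell classes of SS2_20, the 5 neuronal members were high in SGN-like cells, Nes was high in both non-neuronal classes, and Vim was highest in glia-like cells. In 6 plates, Nefl ran from 1702 to 2239 CPM (median 2099) in SGN-like cells, from 8.30 to 29.3 (median 17.4) in glia-like cells and from 1.41 to 20.1 (median 15.7) in OM-like cells. Ina ran from 2122 to 2598 CPM (median 2421), from 17.3 to 28.3 (median 23.7) and from 0.123 to 15.47 (median 2.65) in the same order. Nefm ran from 1652 to 2468 CPM (median 2039), from 25.2 to 40.7 (median 33.1) and from 3.34 to 47.2 (median 13.8). No plate of glia-like or OM-like cells came near a plate of SGN-like cells for these 3 genes.

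Nefh ran from 24.2 to 91.9 CPM (median 44.9) in SGN-like cells, and reached at most 3.59 in glia-like and 3.25 in OM-like cells. Prph ran from 62.6 to 335 CPM (median 122) in SGN-like cells, and reached at most 4.06 and 2.21 in the others. Vim ran from 1691 to 3767 CPM (median 2287) in glia-like cells, from 847 to 1319 (median 1028) in OM-like cells and from 323 to 1792 (median 591) in SGN-like cells. Nes ran from 65.8 to 161 CPM (median 122) in glia-like cells and from 70.8 to 132 (median 102) in OM-like cells, against at most 14.8 in SGN-like cells. For Vim, the SGN-like range overlapped the OM-like range and, at its upper end, the glia-like range, though within each plate glia-like cells were higher than SGN-like cells, and the glia-like and OM-like ranges overlapped for Nes.

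**Figure D3:**
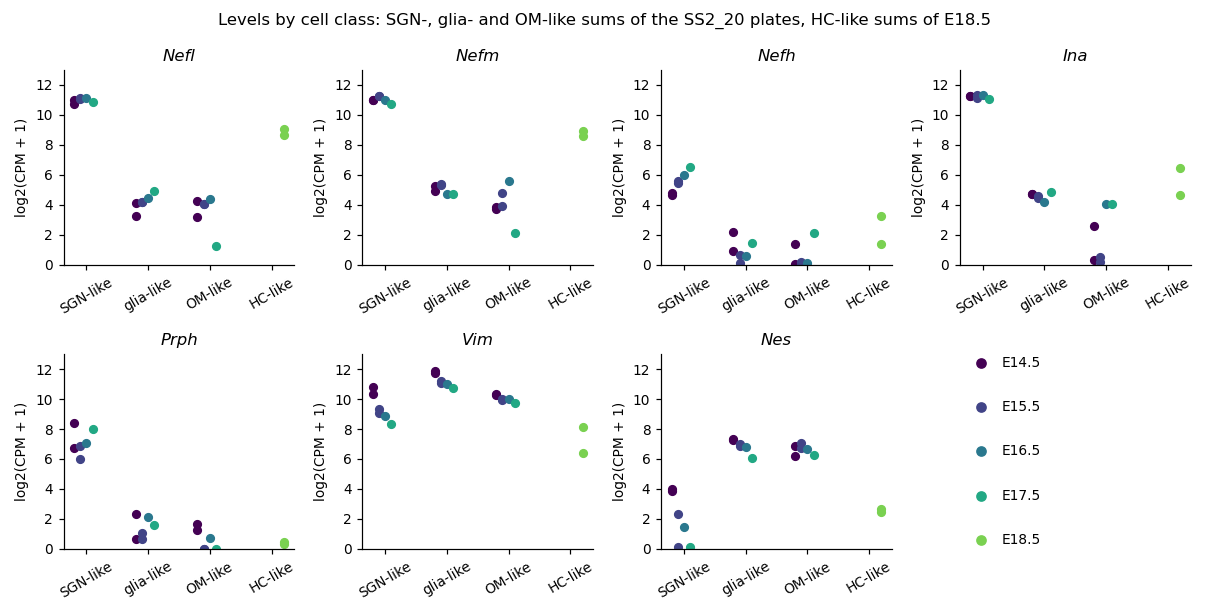
log2(CPM + 1) of each gene in the sums of SGN-like, glia-like and OM-like cells of the 6 SS2_20 plates and of HC-like cells of the 2 E18.5 plates, coloured by stage. Nefl, Nefm and Ina are at least 1652 CPM in SGN-like sums and at most 47.2 CPM in glia-like and OM-like sums, and Nes is the reverse, with at least 65.8 CPM in the latter and at most 14.8 CPM in the former.

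Glia-like cells differed from SGN-like cells of the same plates in all 7 members, where 53.6% of 16366 genes were called. The log2 difference was -6.89 ± 0.24 for Nefl (edgeR adjusted p = 8.02e-07), -6.03 ± 0.09 for Nefm (edgeR adjusted p = 6.16e-08) and -6.70 ± 0.15 for Ina (edgeR adjusted p = 1.27e-07). Nefm had the smallest p of all genes in this comparison. Vim was higher by 1.82 ± 0.19 (edgeR adjusted p = 9.41e-05) and Nes by 5.43 ± 0.88 (edgeR adjusted p = 0.00114). In OM-like against SGN-like cells, 6 members were called, where 47.1% of 15913 genes were. The exception was Vim, higher by 0.67 ± 0.26 (edgeR adjusted p = 0.0627). Its call was gained without replicate 1 of E14.5 (0.86, adjusted p = 0.0159). Between OM-like and glia-like cells, 1 member was called, where 20.5% of 16837 genes were: Vim was lower in OM-like cells by a log2 difference of -1.13 ± 0.10 (edgeR adjusted p = 0.000124), while Nes differed by -0.20 ± 0.18 (adjusted p = 0.508).

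The same order held in counts of cells. After each cell was thinned to 100000 counts, at least 10 counts of Nefl were found in 94.2% to 100% of SGN-like cells over the 6 plates (425 cells kept, 11 too shallow), in 5.77% to 8.14% of glia-like cells (1006 kept, 73 too shallow) and in 0% to 9.86% of OM-like cells (480 kept, 13 too shallow). Nes was found in 24.8% to 51.9% of glia-like, 25.8% to 43.3% of OM-like and 0% to 5.80% of SGN-like cells. Vim was found in 89.6% or more of the cells of each class in each plate. Without thinning, the glia-like ranges were 6.00% to 10.9% for Nefl and 30.2% to 57.7% for Nes. The median cell of a class in a plate held 219130 to 284211 counts.

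Vim and Nes fell with embryonic day in glia-like cells of SS2_20. Vim stood at 3350 and 3767 CPM at E14.5, 2172 and 2402 at E15.5, 2016 at E16.5 and 1691 at E17.5, a slope of -0.37 ± 0.05 per day (edgeR adjusted p = 0.0121). Nes stood at 161 and 155 CPM, then 116 and 128, then 113 and 65.8, a slope of -0.39 ± 0.06 (edgeR adjusted p = 0.0232). These were 2 of 7 members, where 1.58% of 15862 genes were called. Both calls were lost without the E17.5 plate (edgeR adjusted p = 0.07 and 0.305). That of Nes was lost without either E14.5 plate (adjusted p = 0.0769 and 0.0759). That of Vim was lost when a late embryonic cluster that scored as glia but was left unnamed for its leading genes, Col1a2 among them, was counted as glia-like (slope -0.25, adjusted p = 0.191). In OM-like cells Vim went from 1319 and 1221 CPM at E14.5 to 847 at E17.5, a slope of -0.16 ± 0.05 (edgeR adjusted p = 0.318), and 0 of 7 members were called, where 0.0909% of genes were. At an unadjusted edgeR p under 0.05 stood 1300 of the 14306 genes tested in OM-like cells, with 1 member, Vim, among them. DESeq2 called 1 member, Vim (adjusted p = 0.0328), among 368 genes called in all.

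The slopes themselves were compared between classes, in a fit of class, day and their interaction. Both classes come from the same plates, and this fit had no plate term. The slope of Vim was lower in SGN-like than in glia-like cells by 0.40 ± 0.14 log2 units per day (difference -0.40, edgeR adjusted p = 0.192) and than in OM-like cells by 0.59 ± 0.14 (difference -0.59, edgeR adjusted p = 0.0724). The slope of Nes differed by -1.56 ± 0.50 and -1.84 ± 0.55 (edgeR adjusted p = 0.163 and 0.174). In each of these comparisons 0 of 7 members were called, where 1.63% and 1.17% of genes were. At an unadjusted edgeR p under 0.05 stood 3 members in the first (Nefl, Vim and Nes) and 2 in the second (Vim and Nes). So did 2439 of the 16366 genes tested in the first and 1975 of 15913 in the second. DESeq2 called 0 and 2 members, among 1120 and 896 genes called in all.

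Markers of glia were measured in the same SGN-like sums as Vim, and their part in its level was not tested. The 10 glia markers together, as plain CPM, stood at 50.2 to 201 in the SGN-like sums of SS2_20, at 837 and 914 in the other E16.5 plates, at 3418 and 3464 at E18.5 and at 4639 and 5629 at P3. At E14.5, SGN-like sums held 0.861% and 0.640% of the glia marker level of the glia-like sums of their plates, against 51.0% and 32.7% of their Vim and 7.88% and 9.28% of their Nes. At E18.5 they held 28.5% and 31.8% of the glia marker level, 45.5% and 37.6% of the Vim and 42.2% and 34.1% of the Nes. The glia-like sums of E18.5 came from 22 and 13 cells and carried 7701 and 7998 CPM of SGN markers. Those of E14.5 carried 663 and 572 CPM, so the percentages of these stages are not measured against like sums.

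In the 25% of SGN-like cells lowest in glia markers in each plate, the markers summed to 0 CPM in both E14.5 plates, and Vim stood at 1593 and 1632 CPM. In this fraction Vim was 500 and 688 at E15.5, 395, 417 and 375 at E16.5, 274 at E17.5, 218 and 178 at E18.5, and 70.1 and 157 at P3. Nes was 10.3 and 44.0 CPM at E14.5 and at most 0.649 CPM at E18.5 and P3. The markers in this fraction stayed at 24.8 CPM or below in every plate but replicate 2 of P3, where they reached 1135 CPM. These cells were chosen for low values of the same markers, which in all SGN-like cells of the E14.5 plates summed to 93.2 and 74.7 CPM. At E18.5 and P3 the Vim of this fraction lay below that of all SGN-like cells. Over single SGN-like cells, r of Vim with the summed glia markers was between -0.07 and 0.15 in the SS2_20 plates, 0.40 and 0.32 in the other E16.5 plates, and 0.63 to 0.73 at E18.5 and P3.

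**Figure D4:**
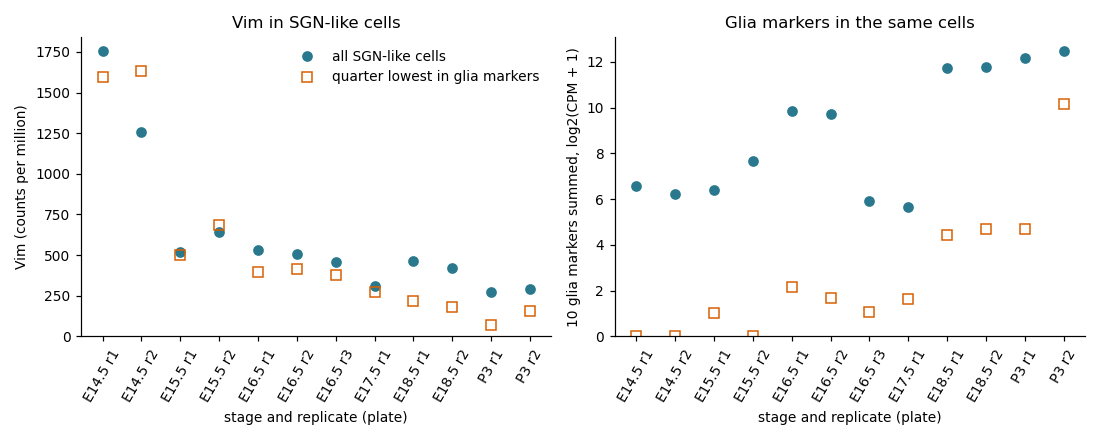
Left, Vim in plain CPM in all SGN-like cells of each plate (filled) and in the 25% lowest in glia markers (open). Right, the 10 glia markers summed in the same cells, as log2(CPM + 1). In the open points Vim goes from 1593 and 1632 CPM at E14.5 to 70.1 and 157 CPM at P3, while the markers of all SGN-like cells go up from 93.2 and 74.7 CPM to 4639 and 5629 CPM.

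Hair cells are sensory cells with no axon. HC-like cells of E18.5 carried the light and medium neurofilament transcripts, with little of the other neuronal members. The study found vestibular beside cochlear hair cells in its data and set the vestibular ones aside. The HC-like cells here (37 and 32) were not split, so the levels are not those of cochlear hair cells alone. Nefl stood at 408 and 531 CPM, and Nefm at 377 and 494, against 2312 and 2150, and 1962 and 1714, in SGN-like cells of the same plates. Ina was 24.4 and 88.1 CPM, Nefh 1.59 and 8.41, and Prph 0.265 and 0.358, where 3 counts in the sum make 0.265 and 0.268 CPM. After thinning, 89.2% and 90.6% of HC-like cells had at least 10 counts of Nefl. The log2 difference was -2.18 ± 0.15 for Nefl (edgeR adjusted p = 0.000354) and -4.66 ± 0.65 for Ina (edgeR adjusted p = 0.00314). In all, 6 of 7 members were called, where 57.2% of 16073 genes were, and Vim, at 274 and 84.8 CPM, was not (log2 difference -1.39 ± 0.53, adjusted p = 0.0769). Both classes come from the same plates, and with plate as a block Vim was called (-1.61, edgeR adjusted p = 0.0259) and Nes was not (-1.10, adjusted p = 0.0705). For Vim the difference was -0.83 without replicate 2 and -2.39 without replicate 1, values with no test. The HC-like sums carried 926 and 1274 CPM of the SGN markers, against 13932 and 13842 in the SGN-like sums. The 13 OM markers summed to 4569 and 1466 CPM in the HC-like sums, against 595 and 516 in the SGN-like sums, and the plate with the higher OM markers was also the one with the higher Vim. The leading genes of 1 of the 2 HC-like clusters included Tecta and Gjb2, which are known from supporting cells. The study also reported both genes in inner hair cells at E18.5, and showed Gjb2 there by RNA in situ hybridization. The part of neuronal RNA in the Nefl and Nefm of HC-like cells, and of mesenchymal RNA in their Vim, was not tested.

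Among neuron classes, Prph separated type II from type I neurons and, within type I, Ia from Ib and Ic. The clusters were formed without Prph, but from other genes of the same cells. II-like cells (27, 20 and 18 cells) held 580 and 547 CPM at E18.5 and 659 at P3. The 4 II-like cells of replicate 2 of P3 were too few to be summed, and cells named Ia/Ib/II-like at E18.5 enter neither side. Type I cells of the same stages held 141 and 123 CPM at E18.5 and 56.6 and 19.3 at P3. The groups did not overlap, and the log2 difference was 2.95 ± 0.48 (edgeR adjusted p = 0.00603). In cells low in glia markers the difference was 3.45 (edgeR adjusted p = 0.0593).

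**Figure D5:**
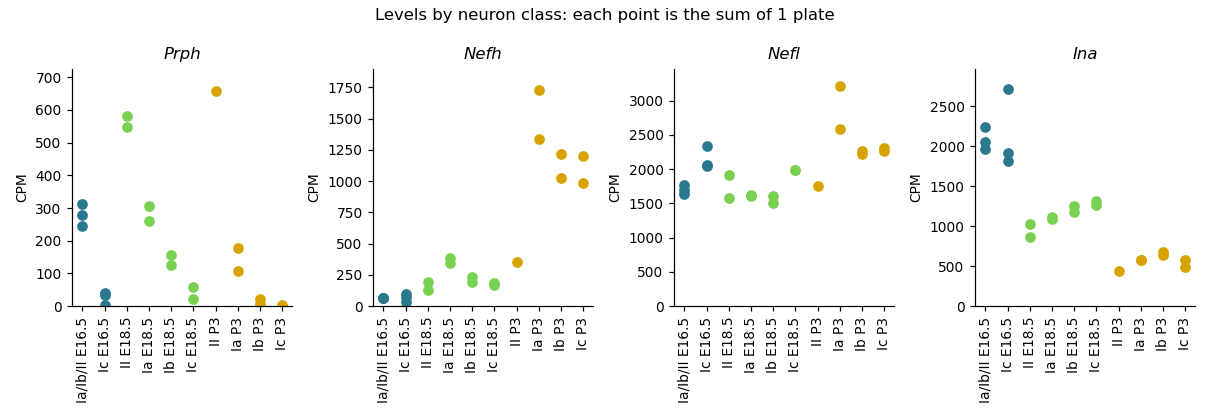
CPM (linear axis) of Prph, Nefh, Nefl and Ina in the sums of neuron classes of each plate, at E16.5, E18.5 and P3. Ia/Ib/II-like sums are drawn at E16.5 only. Prph is highest in II-like sums (547 to 659 CPM), lower in Ia-like sums (106 to 307 CPM) and lowest in Ic-like sums (at most 57.3 CPM), while Nefh at P3 is 352 CPM in the II-like sum and 985 to 1726 CPM in type I sums.

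The other members moved less. Nefh was lower in II-like cells, with 127 and 193 CPM at E18.5 and 352 at P3, against 250 and 213, and 1101 and 1298, in type I cells, a log2 difference of -1.02 ± 0.26 (edgeR adjusted p = 0.0374). Ina was lower by 0.41 ± 0.10 (log2 difference -0.41, edgeR adjusted p = 0.0267). Nefl (-0.18 ± 0.11, adjusted p = 0.331) and Vim (0.06 ± 0.14, adjusted p = 0.816) were not called in edgeR. In all, 3 of 7 members were called, where 13.3% of 15486 genes were. With plate as a block, 1 member was called (Prph), and Nefh and Ina were lost (adjusted p = 0.107 and 0.0767). Nefh was also lost without replicate 1 of P3 (-0.56, adjusted p = 0.0612), replicate 2 of P3 (-0.93, adjusted p = 0.066) or replicate 1 of E18.5 (-1.05, adjusted p = 0.171), and it ranged from -1.43 to -0.56 with 1 plate left out, and Ina without replicate 2 of P3 or replicate 1 or 2 of E18.5 (adjusted p = 0.0603, 0.138 and 0.0881).

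Within type I neurons at E18.5, Prph stood at 307 and 261 CPM in Ia-like, 125 and 158 in Ib-like and 57.3 and 20.7 in Ic-like cells. At P3 it stood at 176 and 106 CPM in Ia-like, 21.1 and 6.31 in Ib-like and 2.62 and 0.296 in Ic-like cells. At each stage the order Ia, Ib, Ic held in both plates without overlap. Ic-like were lower than Ia-like cells over both stages by a log2 difference of -4.56 ± 0.85 (edgeR adjusted p = 0.0107), and Ib-like were lower than Ia-like cells at P3 by -3.34 ± 0.68 (edgeR adjusted p = 0.0163). The first was not called without replicate 1 of P3 (adjusted p = 0.0565) or replicate 2 of E18.5 (0.0506).

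The classes were graded by cell as well. After thinning to 100000 counts, 92.6%, 90% and 88.9% of II-like cells had at least 10 Prph counts (exact 95% intervals 75.7% to 99.1%, 68.3% to 98.8% and 65.3% to 98.6%). In Ia-like cells it was 70.0% and 69.0% at E18.5 and 48.9% and 38.9% at P3. In Ib-like cells it was 36.2% and 46.9% at E18.5, then 5.43% and 0% at P3. In Ic-like cells it was 14.8% and 8.06% at E18.5, and 0 of 107 and 0 of 50 cells at P3. The latter allows shares of up to 2.80% and 6.00% by the limit of 3 divided by the number of cells. By the exact 95% interval it allows up to 3.39% and 7.11%.

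Nefh also differed between Ia and Ic. It stood at 385 and 342 CPM at E18.5 and 1339 and 1726 at P3 in Ia-like cells, against 187 and 165.9, and 985 and 1201, in Ic-like cells. At each stage Ic-like lay below Ia-like cells, with a log2 difference of -0.76 ± 0.14 (edgeR adjusted p = 0.00854). The call was lost without either plate of E18.5 (adjusted p = 0.0927 and 0.0816). These were 2 of 7 members, where 6.59% of 14383 genes were called. At P3, Nefl was lower in Ib-like (2263 and 2214 CPM) than in Ia-like cells (2580 and 3216 CPM), and so was Nefm (1115 and 984 against 1329 and 1655 CPM). The log2 differences were -0.36 ± 0.09 and -0.49 ± 0.11 (edgeR adjusted p = 0.0406 and 0.0289). With Prph, 3 of 7 members were called, where 3.79% of 15338 genes were. Both neurofilament calls were lost without replicate 2 of P3, where the differences were -0.18 and -0.24 (edgeR adjusted p = 0.498 and 0.451). In cells low in glia markers they were -0.13 and -0.22 (edgeR adjusted p = 0.867 and 0.817).

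At E16.5, where the first named classes were Ic-like and Ia/Ib/II-like, Prph already differed. It stood at 35.2, 39.3 and 2.30 CPM in Ic-like and at 246, 280 and 313 CPM in Ia/Ib/II-like cells, with no overlap. The log2 difference was -3.34 ± 0.61 (edgeR adjusted p = 0.0463). This was 1 of 7 members, where 1.01% of 13922 genes were called. With plate as a block the value was -3.53 and adjusted p = 0.105, and without replicate 1 or 2 the adjusted p was 0.229 or 0.152, all in edgeR. Nefl was 2053, 2340 and 2046 CPM in Ic-like and 1696, 1770 and 1630 CPM in Ia/Ib/II-like cells, a log2 difference of 0.34 ± 0.09 (edgeR adjusted p = 0.194) although the plates did not overlap.

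Other intermediate filament genes were followed as a list of 16 (Gfap, Des, Synm, Sync, Bfsp1, Bfsp2, Lmna, Lmnb1, Lmnb2, 5 keratin genes, Iffo1 and Iffo2). In SGN-like cells, 1 rose and 2 fell of 15 tested from E14.5 to E16.5 (median log2 change 0.30, or 0.25 with genes without counts in a group set at their bound, against 0.08 for all genes). From E16.5 to E18.5, 0 rose and 1 fell of 15 (median -0.43 against 0.02), and from E18.5 to P3, 0 rose and 3 fell of 15 (median -0.69 against -0.08). Over all genes, 9.19% were higher and 6.25% lower in the first step, 2.7% and 2.28% in the second, and 12.8% and 12.2% in the third. Lmnb1, a B-type lamin of the nuclear envelope, fell by 0.96 ± 0.21 in the first step (edgeR adjusted p = 0.0121) and fell by 1.73 ± 0.24 in the last (edgeR adjusted p = 0.000483). Lmnb2, the other B-type lamin, fell by 1.64 ± 0.25 in the last step (edgeR adjusted p = 0.000866). Synm, which encodes synemin, a filament partner of vimentin and desmin, fell by 1.10 ± 0.18 from E16.5 to E18.5 (edgeR adjusted p = 0.00676). Iffo1 fell by 0.87 ± 0.23 and Iffo2 rose by 0.66 ± 0.20 in the first step, and Iffo2 fell by 0.92 ± 0.21 in the last (edgeR adjusted p = 0.0264, 0.0481 and 0.00936).

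Between classes, 6 of the 14 tested were higher and 3 lower in glia-like than in SGN-like cells, where 28% of all genes were higher and 25.6% lower. Lmna, the A-type lamin gene, stood at 1030 ± 211 CPM (SD, n = 6) in glia-like and 90.2 ± 35.9 CPM (n = 6) in SGN-like cells (log2 difference 3.59 ± 0.18, edgeR adjusted p = 3.23e-06). Synm went the other way, with 19.6 ± 10.8 CPM against 145 ± 19.9 CPM (log2 difference -3.02 ± 0.23, edgeR adjusted p = 2.16e-05). In OM-like against SGN-like cells 2 were higher (Lmna and Lmnb1) and 2 lower (Synm and Iffo1) of 12, against 24% and 23.2% of all genes. In OM-like against glia-like cells 2 of 15 were lower, Lmna and Bfsp2, against 9.96% of all genes. In HC-like cells 5 of 15 were higher and 6 lower than in SGN-like cells, against 27.8% and 29.4% of all genes. The simple epithelial keratins Krt8 and Krt18 stood at 142.6 ± 0.385 and 173 ± 16.4 CPM (SD, n = 2) in HC-like cells and at 0.263 ± 0.173 and 0.115 ± 0.0347 CPM in SGN-like cells, and Krt7 at 53.5 ± 13.3 CPM against no count. Between neuron classes, Iffo1 was lower in II-like than in type I cells (-1.18 ± 0.31, edgeR adjusted p = 0.0414), 1 of 13 tested, and Synm was higher in Ic-like than in Ia/Ib/II-like cells of E16.5 (1.04 ± 0.18, edgeR adjusted p = 0.0391), 1 of 11. No gene of this list was called by edgeR in Ic against Ia (9 tested) or Ib against Ia (11 tested). By day, Lmnb1 fell by 0.52 ± 0.10 per day in SGN-like cells (edgeR adjusted p = 0.0239), 1 of 10, and 0 were called in glia-like (14 tested) and OM-like cells (12 tested).

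A list of 18 genes of filament linkers, carriers, kinases, chaperones and turnover (among them Dst, Macf1, Plec, Eppk1, Trim2, Kif5a, Kif5b, Kif5c, Dync1h1, Myo5a, Cdk5, Cdk5r1, Gsk3b, Hspb1, Cryab and Tardbp) was followed in the same way. In SGN-like cells 3 rose and 0 fell of 18 from E14.5 to E16.5 (median 0.15 against 0.08 for all genes), 1 rose and 1 fell to E18.5 (median -0.15 against 0.02), and 3 rose and 8 fell to P3 (median -0.21 against -0.08), beside the same shares of all genes as for the first list. Cryab, a small heat shock chaperone of filaments, had no count in the E14.5 plates and 59.98 and 55.1 CPM at E18.5, then 437 and 519 CPM at P3, a log2 change of 3.07 ± 0.56 in the last step (edgeR adjusted p = 0.00324). Plec, which encodes the linker plectin, rose by 0.50 ± 0.12 from E14.5 to E16.5 (edgeR adjusted p = 0.0191) and by 0.37 ± 0.05 per day within SS2_20 (edgeR adjusted p = 0.00775). Myo5a, a motor that binds neurofilaments, rose by 0.67 ± 0.15 and 0.31 ± 0.07 in these comparisons (edgeR adjusted p = 0.0145 and 0.0295). The linkers Macf1 and Dst fell by 0.73 ± 0.15 and 0.65 ± 0.14 from E18.5 to P3, and the dynein heavy chain gene Dync1h1 by 0.57 ± 0.10 (edgeR adjusted p = 0.00403, 0.00648 and 0.0021). The kinase gene Gsk3b rose by 0.63 ± 0.13 in that step (edgeR adjusted p = 0.00587). Cdk5r1, an activator of the kinase Cdk5, fell by 1.00 ± 0.19 from E16.5 to E18.5 (edgeR adjusted p = 0.0143).

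In glia-like against SGN-like cells, 4 of 17 tested were higher and 11 lower, and in OM-like against SGN-like cells 0 of 18 were higher and 12 lower. Kif5c, the neuronal kinesin heavy chain that carries neurofilaments, stood at 57.0 ± 16.7 CPM in glia-like, 34.3 ± 17.8 in OM-like and 818 ± 41.0 in SGN-like cells (SD, n = 6 each). Dst was higher in glia-like (1466 ± 309 CPM) than in OM-like cells (201 ± 37.4 CPM), with a log2 difference of -2.77 ± 0.13 in OM-like cells (edgeR adjusted p = 1.06e-05), 1 of 6 genes lower against 1 higher, Macf1, of 18. In HC-like cells 4 of 18 were higher and 11 lower than in SGN-like cells. The shares of all genes in these class comparisons are those given beside the first list. In II-like against type I cells, Kif5c was lower by a log2 difference of -0.79 ± 0.10 and Kif5a by -0.50 ± 0.11 (edgeR adjusted p = 0.00195 and 0.0182), 2 of 17. In Ic-like against Ia-like cells Trim2 was higher (0.47 ± 0.10) and Cryab lower (-0.57 ± 0.12, edgeR adjusted p = 0.0174 and 0.0184), 1 and 1 of 16. Across days, Trim2 rose in glia-like cells by 0.41 ± 0.07 per day (edgeR adjusted p = 0.0254), 1 of 17, and the slope of Plec was higher in SGN-like than in OM-like cells by 1.16 ± 0.14 (edgeR adjusted p = 0.00452), 1 of 18. None was called by edgeR in Ib against Ia (16 tested), in Ic against Ia/Ib/II (17 tested) or by day in OM-like cells (16 tested).

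The genes with the pattern most like a member were taken from 10956 genes with a mean of at least 10 CPM, by Pearson's r of log2(CPM + 1) over the 34 sums of SGN-like, glia-like, OM-like and HC-like cells. For Nefl these were Nefm (r = 0.985), Pcbp3 (0.982), Cacng5 (0.981), Hecw1 (0.980) and Syn1 (0.976). For Prph they were Klc1 (0.965), Epha10 (0.961), Ptprn (0.955), Nrg3 (0.955) and Trim67 (0.954). For Vim they were Msn (0.936), Phldb1 (0.867), Fen1 (0.846), Klhl13 (0.843) and Map4k4 (0.840), and for Nes Grb10 (0.929), Cald1 (0.925), Txndc12 (0.922), Tead2 (0.921) and Hmgb2 (0.918). Over the 23 sums of neuron classes of E16.5, E18.5 and P3, the genes most like Prph were Efs (0.936), Slc7a7 (0.912), Psat1 (0.912), Fam78b (0.903) and Kcnc4 (0.901), of 10049 genes. Sums of 1 plate share their library, so r is a description over these sums. The 34 sums include the glia-like and OM-like sums outside SS2_20, which carried 6297 to 8359 CPM of SGN markers. Their part in these lists was not tested.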

How the data were processed

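The authors sorted reporter-positive cochlear cells into 384-well plates for Smart-seq2, mapped reads with STAR (2-pass) to mm10 with ERCC sequences, kept uniquely mapped reads, counted them with featureCounts and deposited raw counts per gene and well. The annotation and the strand setting are not given in the sources used here. Smart-seq2 reads carry no molecule barcodes. Intervals and floors cover counting error only. A plate of 384 wells has no sample and was not used.

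Wells were kept when over 1000 genes were detected and ERCC counts stayed below 5%. Stages were clustered separately (E17.5 with E18.5) in scanpy 1.11.5 with leidenalg 0.10.2 (2000 variable genes, 30 components, 30 neighbours, resolution 1, counts scaled to 1000 per cell), without the 7 members, both gene lists, or 1146 genes following Sox10 at E18.5 (r above 0.3). Neuron sub-clusters were made from values centred by plate and without 1583 genes following glia or OM markers. Clusters were named from marker lists, needing 3 markers, a mean score of 0.25 (0.2 for neuron classes), and leading genes that did not favour another class. This last condition was revised 2 times after clusters had been seen: genes following Sox10 were left out of the leading genes of clusters scored SGN-like, since neurons of P3 otherwise stayed unnamed, and not of others. The other choice is among the alternatives. Doublets were not called.

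Counts were summed per class and plate (5 cells or more, 3 for HC-like) and tested with the quasi-likelihood test of edgeR 4.0.16, run in R 4.3.3, after filterByExpr and TMM. Stages were fitted over 12 SGN-like sums, days and classes within SS2_20 with day or plate as terms, and late neuron classes with stage. Plates stand for pools of animals, so p-values measure the spread between plates. Sums of 1 plate share their animals. Their deviations from class means correlated with r of 0.0989 to 0.189 between Ic-like and Ia/Ib/II-like sums of E16.5. Between SGN-like and glia-like sums r was 0.0502 to 0.150, and between Ic-like and Ia-like sums 0.669 to 0.750. These last 2 pairs span several stages (E14.5 to E17.5, and E18.5 with P3). Their deviations therefore hold stage differences and do not measure shared animals alone. Pool shares used exact permutation (scipy 1.17.1), and cells were thinned to 100000 counts. The fits were tested on simulated data. Alternatives were DESeq2 1.42.0, its size factors, no filter, other cell filters, resolution 2, left-out plates and cells low in glia markers. Plate blocks were added only in the HC-like, II-like and Ic-like comparisons, and not in the slopes or in Ib against Ia. The members and lists were chosen with earlier results of these data known. Named are the members, up to 6 list genes called per comparison (some list genes count in the totals and are not reported here), and the 5 genes most like Nefl, Prph, Vim and Nes.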

Additional observations from a re-analysis of the deposited data

How the results depend on the processing

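Of the values recomputed under the alternatives, 1302 were counted as the same. Tested values in this count kept their direction and their side of the threshold, and refits with no test kept their direction. Thinned shares of cells, which have neither, were counted as the same when their median moved by at most 1 SD over plates, and 1 moved further. In 75 a call was lost, in 34 one was gained, and in 59 the direction changed. The cause was not tested in any of these, except that fewer plates or cells leave a test with less data. The median cell of the SS2_20 plates held 232473 to 277856 counts, against 317566 to 1092427 in the other plates, so that low genes are counted less precisely in its single cells. Leaving out a plate of the HC-like comparison leaves no spread to test, and the pool shares then have too few splits. The number of members called moved under the following settings. DESeq2 called 1 in OM-like cells by day, 4 in OM-like against glia-like, 5 in Ib against Ia, 3 in Ic against Ia/Ib/II and 2 in the slopes of SGN-like against OM-like. With no filter on low counts 5 were called in Ib against Ia. With the other cell filter stated in the study (50000 counts, 2500 genes, under 25% ERCC) 1 was called in glia-like cells by day, 0 in Ic against Ia/Ib/II and 1 in the slopes of SGN-like against OM-like. Resolution 2 gave 1 in the last of these. In the 25% of SGN-like cells lowest in glia markers, 0 were called from E16.5 to E18.5, 3 from E18.5 to P3 and 1 in the slopes of SGN-like against OM-like. In neuron classes kept to cells at or below the median of glia markers, an alternative chosen after seeing the data, 1 was called in II against type I, 1 in Ib against Ia and 0 in Ic against Ia/Ib/II. Leaving the genes that follow Sox10 out of the leading genes of every cluster, also chosen after seeing the data, gave 1 in glia-like cells by day. E17.5 against E16.5 within SS2_20, 1 plate against 1, gave 0. With plate as a replicate block, 1 was called in II against type I and 0 in Ic against Ia/Ib/II. In the HC-like comparison the block moved Vim past the threshold (-1.61, edgeR adjusted p = 0.0259) and Nes out of it (-1.10, adjusted p = 0.0705), and beside Nefh and Ina in II against type I and Prph in Ic against Ia/Ib/II it changed no call of a member. Directions changed as follows, in log2 units. In the cells lowest in glia markers Prph rose from E14.5 to E16.5 (2.13, edgeR adjusted p = 0.0131). There Prph also gained a call by day within SS2_20 (1.04) while Nefh lost its own, and from E16.5 to E18.5 Nefl was at 0.32, Nefm at 0.32 and Nes at -1.57. In these cells Nes was at 3.69 in HC-like against SGN-like, and Prph at 0.95 in the slopes of SGN-like against glia-like. In neuron classes low in glia markers, Vim was at -0.24 and Nes at -0.78 in II against type I, and Nefl at 0.11 in Ic against Ia. Within SS2_20, Ina was at 0.074 from E14.5 to E16.5 and Nes at -4.64 from E16.5 to E17.5. Without the 5% of cells with the highest counts, Prph was at -0.015 per day in SGN-like cells, Nefl at 0.0097 in Ic against Ia, Nefh at -0.11 in Ic against Ia/Ib/II and Nefm at -0.048 in the slopes of SGN-like against glia-like. At resolution 2, Nefm was at -0.029 and Nes at 0.077 per day in OM-like cells, and Nefm at -0.055 in Ic against Ia/Ib/II. With the other cell filter Prph was at 0.72 per day in OM-like cells and -0.71 in the slopes of SGN-like against OM-like. The plate block put Nefh at -0.026 and Nes at -0.098 in Ic against Ia/Ib/II. DESeq2 put Nefh at -0.25 in the slopes of SGN-like against OM-like, and the other leading genes put Ina at 0.063 in those of SGN-like against glia-like. 

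With each plate left out in turn, the number of members called was 1 to 2 in E16.5 to E18.5, 2 to 4 in E18.5 to P3, 1 to 3 in SGN-like cells by day, 0 to 2 in glia-like cells by day, 1 to 3 in OM-like against glia-like, 1 to 2 in II against type I, 0 to 2 in Ic against Ia, 1 to 5 in Ib against Ia, 0 to 3 in Ic against Ia/Ib/II, 0 to 1 in the slopes of SGN-like against glia-like, 0 to 1 in the slopes of SGN-like against OM-like, 0 to 0 in the pool shares. Log2 values that changed sign with a plate left out ranged as follows. In E14.5 to E16.5: Prph -1.38 to 0.28. In E16.5 to E18.5: Nefl -0.12 to 0.027. In SGN-like cells by day: Nefl -0.045 to 0.12, Nefm -0.15 to 0.025, Ina -0.074 to 0.024, Prph -0.50 to 0.44. In glia-like cells by day: Nefh -1.30 to 0.36, Ina -0.29 to 0.044, Prph -0.12 to 0.86. In OM-like cells by day: Nefl -1.01 to 0.34, Nefm -0.59 to 0.95, Nes -0.21 to 0.13. In OM-like against glia-like: Nefl -0.84 to 0.029. In II against type I: Vim -0.064 to 0.22. In Ic against Ia: Nefl -0.13 to 0.16, Nefm -0.34 to 0.12. In Ic against Ia/Ib/II: Nefm -0.026 to 0.16, Nefh -0.31 to 0.42, Ina -0.10 to 0.12, Nes -0.49 to 1.17. For the slopes of SGN-like against glia-like: Ina -0.13 to 0.29, Prph -0.92 to 0.52. For the slopes of SGN-like against OM-like: Nefl -0.21 to 0.90, Nefm -0.91 to 0.45, Nefh -2.04 to 3.07.

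Over all genes, the count called moved by over 1.5 times in E14.5 to E16.5 from 2744 to 4357 (DESeq2), 1727 (cells lowest in glia markers), 354 (SS2_20 only), 1575 to 3597 (a plate left out), E16.5 to E18.5 from 885 to 1994 (DESeq2), 77 (cells lowest in glia markers), 0 (E17.5 against E16.5), 93 to 927 (a plate left out), E18.5 to P3 from 4440 to 1218 (cells lowest in glia markers), 2170 to 2991 (a plate left out), SGN-like cells by day from 849 to 1766 (DESeq2), 126 (cells lowest in glia markers), 183 to 770 (a plate left out). It also moved in glia-like cells by day from 250 to 1284 (DESeq2), 128 (the other cell filter), 14 to 164 (a plate left out), OM-like cells by day from 13 to 368 (DESeq2), 100 (no filter), 21 (no top 5% of cells), 0 to 7 (a plate left out), OM-like against glia-like from 3460 to 5368 (DESeq2), II against type I from 2058 to 3256 (DESeq2), 883 (plate block), 718 to 1871 (a plate left out), Ic against Ia from 948 to 1788 (DESeq2), 1762 (no filter), 560 (cells low in glia markers), 377 to 904 (a plate left out), and in Ib against Ia from 581 to 1140 (DESeq2), 1271 (no filter), 196 (cells low in glia markers), 538 to 1490 (a plate left out), Ic against Ia/Ib/II from 140 to 546 (DESeq2), 217 (no filter), 26 (cells low in glia markers), 15 to 942 (a plate left out), the slopes of SGN-like against glia-like from 267 to 1120 (DESeq2), 176 (cells lowest in glia markers), 59 to 239 (a plate left out), the slopes of SGN-like against OM-like from 186 to 896 (DESeq2), 96 (cells lowest in glia markers), 60 to 208 (a plate left out).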

Other observations

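Cells outside the comparisons gave the following pooled values, as plain CPM. Epithelial-like cells (12 at E14.5, 13 at E15.5 and 12 at E16.5) held 738, 424 and 237 CPM of Vim and 211, 86.9 and 72.9 CPM of Nes. Nefl in these cells was 14.7, 55.9 and 465 CPM. The 6 immune-like cells of E14.5 held 2364 CPM of Vim and no count of Nefl, Nefm, Nefh or Prph. Unnamed cells held 1598 CPM of Vim at E14.5 (57 cells), 2470 at E15.5 (34 cells), 3641 at E17.5 (64 cells) and 1823 at E18.5 (22 cells). The 5 HC-like cells of E17.5, 1 plate, held 57.2 CPM of Nefl, 148 of Nefm and 963 of Vim.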
